A study of Caenorhabditis elegans with 36 samples.

Results

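sosi-1 (C41D11.6) and E01G4.5 are 2 C. elegans genes of the 20167 for which the deposited tables give RNA polymerase II (Pol II), H3K9me3 and input signals. The pair was chosen by gene name, with earlier results of these data known, so the differences between hrde-1 mutant and wild-type animals in Pol II and H3K9me3 are given for both genes as a description with no test. The readout behind the choice is not stated. Heat differences, recovery differences and the input libraries were assumed to lie outside it and were tested under that assumption. The genes lying beside the pair were taken by position and tested too. Earlier results were known for them as well, and some may share reads with sosi-1, so their tests are not independent of the choice. Both genes are annotated in the WS190 coordinates of the tables, sosi-1 on the minus strand of chromosome I (4460146 to 4462705, 2560 bp) and E01G4.5 on the plus strand of chromosome II (13472338 to 13473831, 1494 bp).

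HRDE-1 is a nuclear Argonaute of the C. elegans germline. It carries endogenous siRNAs into the nucleus and directs transcriptional repression and trimethylation of histone H3 at lysine 9 (H3K9me3) to the genes those siRNAs match, and the silent state can be inherited over generations. E01G4.5 is a known target of endogenous siRNAs that another nuclear Argonaute, NRDE-3, binds in somatic cells. sosi-1 lies between eri-6 and T01A4.3. The pre-mRNAs of eri-6 and its neighbour eri-7 are joined by trans-splicing into a single mRNA that encodes the helicase ERI-6/7, a negative regulator of exogenous RNAi that works with the Argonaute ERGO-1 in an endogenous siRNA pathway.

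The study followed wild-type N2 animals (WT) and animals carrying the hrde-1 deletion allele tm1200 through a temperature shift, from 15 °C to 23 °C and back, both strains fed E. coli OP50. The libraries analysed here come from 1 generation before heat (15C-G3), 3 generations in heat (generations 2, 4 and 6, written 23C-G2 to 23C-G6) and 2 generations after return to 15 °C (p15C-G1 and p15C-G2). Each of the 12 cultures gave 3 libraries, namely a ChIP with an antibody to Pol II phosphorylated at serine 2 of its C-terminal repeat (the elongating form, called Pol II here), a ChIP for H3K9me3, and the input DNA. Each genotype is 1 lineage, and all libraries carry the label of biological repeat 2, so a phase is replicated only by later generations of the same lineage, and the tests measure the spread between these. Adults were collected sooner after release of the first-stage larvae at 23 °C than at 15 °C, so heat and age at collection cannot be told apart. The samples were whole young adults, in which fewer germ cells and a lower signal per germ cell cannot be told apart either.

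Values are RPKM as the authors deposited them. Depth was estimated from the steps between low values, at 3067775 to 5656991 reads in the Pol II libraries, 2066265 to 7971567 in H3K9me3 and only 220816 to 1314738 in input. The hrde-1 gene, which the mutants lack in part, had Pol II values of 107 to 189 RPKM in WT and 76.5 to 129 RPKM in hrde-1, lower in the mutant in 6 of 6 generations with overlapping ranges, and a gene-wide value need not be lost with a partial deletion. All 8 germline markers lay above the library median in every Pol II library, with a summed level of 340 to 570 RPKM in WT and 288 to 484 RPKM in hrde-1. The 5 sperm markers summed to 9.95 to 25.1 RPKM in WT and to 23.0 to 37.4 RPKM in hrde-1. Of these 5, spe-41, a TRP-family calcium channel of sperm, passed the test (log2 change at 23C 1.40, limma adjusted p = 0.0041), and the other 4 summed to 7.34 to 18.8 RPKM in WT and 12.1 to 25.9 RPKM in hrde-1. Intestine markers summed to 381 to 742 RPKM in WT and 311 to 683 RPKM in hrde-1. Whether sperm or any other cell type takes part in the differences described next was not tested.

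sosi-1 was high in H3K9me3 and moderate in Pol II in WT, and low in H3K9me3 and high in Pol II in hrde-1. In WT its Pol II value was 12.6 RPKM in 15C-G3, 13.4 RPKM in 23C-G2, 10.3 RPKM in 23C-G4, 8.97 RPKM in 23C-G6, 9.66 RPKM in p15C-G1 and 11.2 RPKM in p15C-G2. In hrde-1 the corresponding Pol II values were 144, 105, 110, 114, 87.5 and 133 RPKM. Every mutant library was above every WT library, and the mutant value exceeded the WT value of the same generation by 7.82-fold to 12.7-fold. In the fit on log2(RPKM + 1), which understates changes at low values, the Pol II difference of hrde-1 minus WT was 3.41 ± 0.30 (SE) at 15C, 3.23 ± 0.17 at 23C and 3.26 ± 0.21 at p15C. It stood 17th, 21st and 11th from the top among the 20116 genes tested. The difference was thus already present in the generation sampled before heat, with 1 library of each genotype. Among all genes, 0.492% were called higher in hrde-1 at 15C, 0.795% at 23C and 0.825% at p15C, a call being a limma adjusted p of at most 0.1 with a change of at least 2-fold. With generation as a replicate block, the Pol II calls in either direction were 610 in place of 112 at 15C. At p15C they were 292 in place of 191. The block cannot move the sosi-1 values of 3.41 and 3.26, since each generation has 1 library of each genotype.

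The H3K9me3 signal of sosi-1 went the other way. In WT it was 65.5 RPKM in 15C-G3, 42.0 RPKM in 23C-G2, 46.9 RPKM in 23C-G4, 41.8 RPKM in 23C-G6, 48.9 RPKM in p15C-G1 and 59.4 RPKM in p15C-G2. In hrde-1 it was 7.54, 5.85, 5.10, 4.94, 5.72 and 6.62 RPKM in the same order. The groups did not overlap, and the WT value was 7.18-fold to 9.19-fold that of hrde-1 in the same generation. In WT, sosi-1 ranked between 5th and 71st of all 20167 genes by H3K9me3 per length in each library. In hrde-1 it lay between the 26.9th and 44.7th percentile, below the median gene of every library. By Pol II, sosi-1 lay between the 62.3rd and 72.3rd percentile in WT and ranked 63rd to 106th from the top in hrde-1.

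On the log2 scale the H3K9me3 difference of sosi-1 was -2.96 ± 0.20 (SE) at 15C, -2.82 ± 0.11 at 23C and -2.94 ± 0.14 at p15C. At 23C and at p15C only 1 gene of 20167 had a lower value. Of all genes, 0.982% were called lower in H3K9me3 at 15C, 0.838% at 23C and 0.902% at p15C. Nothing is read from these shares about sosi-1, since these contrasts were known when it was chosen.

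**Figure D1:**
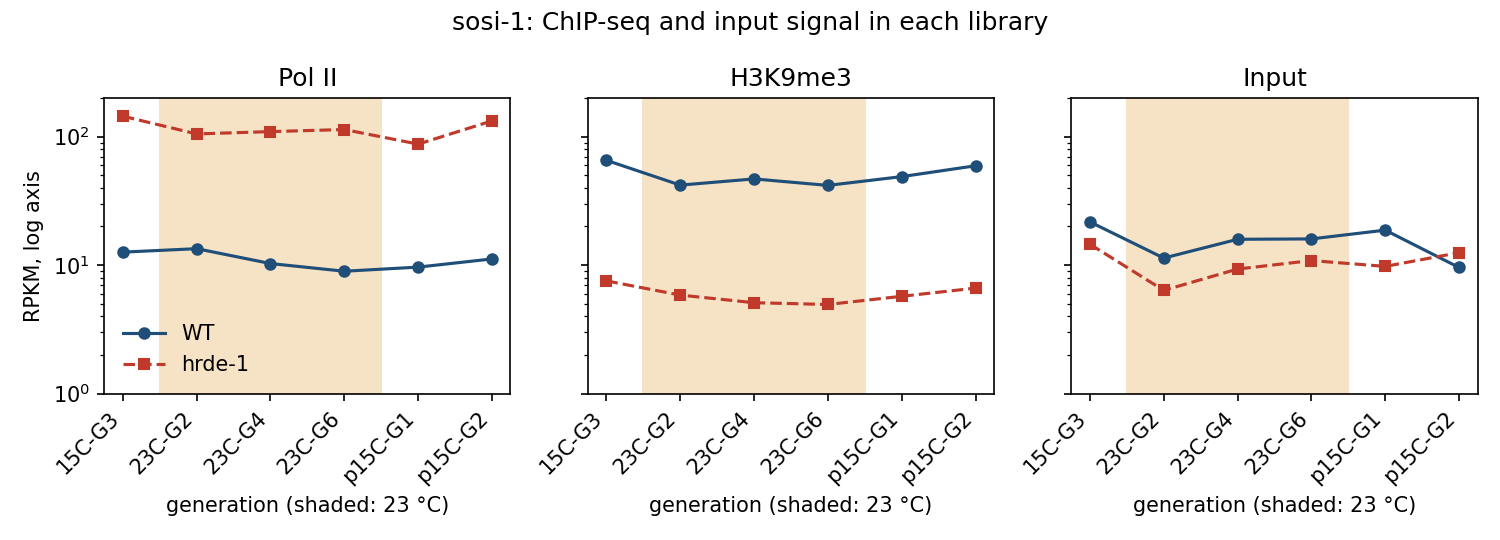
sosi-1 signal in each of the 36 libraries (RPKM, log axis) against generation, with WT as blue circles, hrde-1 as red squares and the 23 °C generations shaded; each point is 1 library and lines join the generations of a genotype. Pol II in hrde-1 (87.5 to 144 RPKM) lies above WT (8.97 to 13.4 RPKM) and H3K9me3 lies below it, while the input values overlap.

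The input libraries give the background for these values, from few reads. sosi-1 input was 21.7, 11.4, 15.9, 16.005, 18.7 and 9.59 RPKM in WT and 14.6, 6.36, 9.33, 10.9, 9.78 and 12.5 RPKM in hrde-1, resting on 5 to 58.5 estimated reads a library. The mutant input was the lower one in 5 of 6 generations, with overlapping ranges. The difference in log2(RPKM + 1) was -0.66 ± 0.29 (SE) at 23C (limma adjusted p = 0.40) and -0.26 ± 0.36 at p15C (adjusted p = 1.0), so it did not pass the test. Its sign was that of the H3K9me3 difference and opposite to that of Pol II. No gene was called in input at 15C, 23C or p15C (0%), although 2360 genes at 23C and 661 genes at p15C had an unadjusted p under 0.05. Divided by the input of the same culture, sosi-1 H3K9me3 was 2.61 to 6.19 in WT and 0.455 to 0.919 in hrde-1, again without overlap.

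The estimated reads of sosi-1 came out whole, within 0.05 reads, in 16 of 36 libraries and as multiples of 0.25 reads in all 36. Fractions of that kind arise where a read that matches several places is split between them, so a part of the sosi-1 signal may come from similar sequence elsewhere. That part was not measured. No other gene had values identical to those of sosi-1 or E01G4.5.

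The genes beside sosi-1 were taken by position, as all table genes within 10 kb, with earlier results of these data known, and eri-6 and eri-7 also stand in the list of pathway genes given further on. Of these 4 genes, eri-6 and eri-7 were called in Pol II at 23C, and eri-6 and T01A4.3 in H3K9me3. The outermost, cmt-1, was called in neither. At 23C, 0.85% of all genes were called in Pol II and 0.848% in H3K9me3, in either direction. The ChIP reads carry no strand, so overlapping signals of convergent or divergent genes cannot be separated. The steps of the values match a counting window about 1 kb longer than each gene, and the side on which it was added is not given in the sources used here. If it was split evenly, no neighbouring window overlapped that of sosi-1, and the nearest, that of T01A4.3, began about 150 bp from it. The windows of eri-7 and eri-6, whose genes lie 577 bp apart, would then overlap by about 422 bp, and those of cmt-1 and eri-7 by about 729 bp, so the values of these neighbours would share reads. If the length was instead added only upstream of each gene, the windows of sosi-1 and T01A4.3, divergent genes 1149 bp apart, would overlap. If it was added only downstream, those of sosi-1 and eri-6, convergent genes 1474 bp apart, would overlap.

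eri-6 (4457383 to 4458672, plus strand), 1474 bp from sosi-1, rose in Pol II and fell in H3K9me3 in hrde-1. Its Pol II value at 23C was 11.8 ± 0.97 RPKM in WT and 42.8 ± 5.95 RPKM in hrde-1 (mean ± SD, n = 3), a log2 change of 1.77 ± 0.15 (SE, limma adjusted p = 6.2e-06). Its H3K9me3 at 23C was 5.59 ± 1.00 RPKM in WT and 2.18 ± 0.065 RPKM in hrde-1, a log2 change of -1.04 ± 0.14 (limma adjusted p = 8.6e-05). In every generation the mutant value exceeded WT for Pol II, by 2.99-fold to 5.13-fold, and was below WT for H3K9me3. The H3K9me3 call was lost without the WT 23C-G4 library (-0.93, limma adjusted p = 0.0011) and with a pseudocount of 5 (-0.56, adjusted p = 8.2e-05), both by size, and with input subtracted (-1.13, adjusted p = 0.35). The Pol II call was lost with input subtracted (1.68, limma adjusted p = 0.21).

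eri-7 (4451196 to 4456806, minus strand), 3340 bp away on the far side of eri-6, rose in Pol II and was not called in H3K9me3, in a window that may share reads with that of eri-6. Its Pol II value at 23C was 8.18 ± 0.67 RPKM in WT and 18.5 ± 0.61 RPKM in hrde-1 (n = 3), a log2 change of 1.09 ± 0.13 (limma adjusted p = 2.3e-04). That call was lost by size with a pseudocount of 5 (0.84) and with median centring (0.99), and with input subtracted (0.61, limma adjusted p = 0.71). Its H3K9me3 was 3.77 ± 0.22 RPKM in WT and 2.76 ± 0.30 RPKM in hrde-1, which did not pass (log2 change -0.34, limma adjusted p = 0.21), although it was lower in hrde-1 in 6 of 6 generations.

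T01A4.3 (4463854 to 4466904, plus strand), 1149 bp away on the other side, was lower in H3K9me3 in hrde-1, with a Pol II difference under 2-fold. In WT its H3K9me3 was 46.8 RPKM in 15C-G3, 38.4 RPKM in 23C-G2, 36.9 RPKM in 23C-G4, 30.3 RPKM in 23C-G6, 35.5 RPKM in p15C-G1 and 43.9 RPKM in p15C-G2. In hrde-1 it was 7.46, 6.11, 4.34, 5.28, 5.72 and 5.41 RPKM. The groups did not overlap, and the log2 change at 23C of -2.54 ± 0.13 (limma adjusted p = 2.9e-10) kept its call in 19 of 19 alternative fits. Pol II at 23C was 13.998 ± 0.90 RPKM in WT and 24.2 ± 3.50 RPKM in hrde-1 (n = 3), a log2 change of 0.74 ± 0.13 with a limma adjusted p of 0.0088, under the 2-fold limit of a call. T01A4.3 and sosi-1 thus had nearly the same H3K9me3 levels in hrde-1 at 23C, 5.24 ± 0.88 and 5.30 ± 0.48 RPKM, but Pol II levels of 24.2 and 109 RPKM. Their counting windows may share reads, depending on the side of the added length, which is not known.

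cmt-1 (4449939 to 4450926, minus strand), 9220 bp from sosi-1, was not called in either mark. Its Pol II at 23C was 20.7 ± 2.42 RPKM in WT and 18.7 ± 4.08 RPKM in hrde-1 (log2 change -0.16 ± 0.16, limma adjusted p = 1.0). Its H3K9me3 was low in both, at 1.46 ± 0.77 and 1.72 ± 0.036 RPKM (log2 change 0.20 ± 0.19, limma adjusted p = 0.69). The Pol II change was thus largest at sosi-1 and smaller at eri-6, eri-7 and T01A4.3, whereas the H3K9me3 change was large at both sosi-1 and T01A4.3. The estimated reads of cmt-1 were whole in all 36 libraries. Those of eri-6 were whole in 22 and multiples of 0.25 in all 36, as at sosi-1, while those of eri-7 were multiples of 0.25 in 11 and those of T01A4.3 in 9. How far reads from other places enter the values of eri-6, eri-7 and T01A4.3 is not known.

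**Figure D2:**
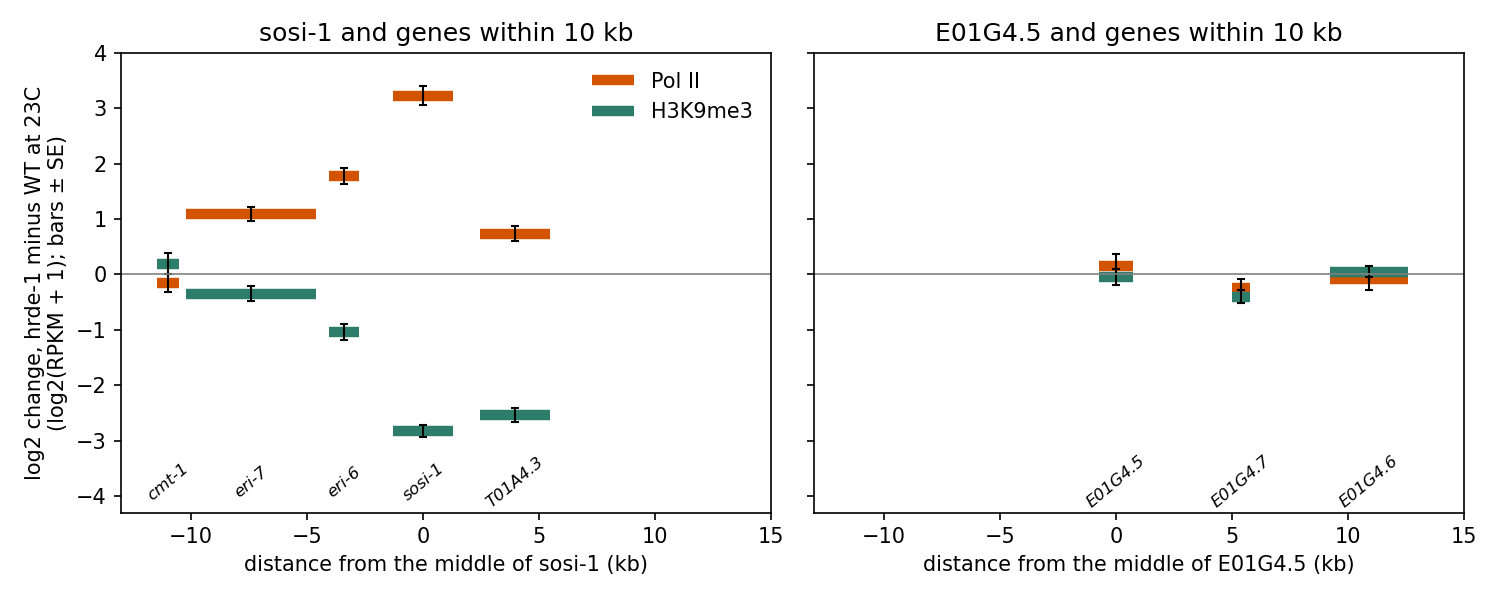
Log2 change of hrde-1 minus WT at 23C, on the log2(RPKM + 1) scale, for sosi-1 (left) and E01G4.5 (right) and the genes within 10 kb; each bar spans a gene at its distance from the middle of the named gene in kb, orange for Pol II and green for H3K9me3, with black SE bars. Around sosi-1, Pol II changes of 1.77 at eri-6 and 1.09 at eri-7 and an H3K9me3 change of -2.54 at T01A4.3 stand away from 0, while the genes around E01G4.5 lie near it.

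The same neighbours differed after the return to 15 °C. At p15C the Pol II change was 2.14 for eri-6 (limma adjusted p = 1.4e-05) and 1.21 for eri-7 (limma adjusted p = 9.8e-04), and the H3K9me3 change was -1.09 for eri-6 (adjusted p = 6.6e-04) and -2.63 for T01A4.3 (adjusted p = 9.8e-09). Before heat, at 15C, the Pol II values were 15.5 RPKM in WT and 70.5 RPKM in hrde-1 for eri-6, and 9.69 and 24.3 RPKM for eri-7. The log2 changes there were 2.12 and 1.24. They compare 1 library of each genotype, so 15C has no replicate of its own, and the limma adjusted p of 7.9e-04 and 0.021 take their spread from the other phases and assume that the 15C libraries vary like those.

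W03G1.8, F49F1.7 and F55B11.6, on chromosome IV, are other genes whose Pol II is high in hrde-1 and are set beside sosi-1 as a description. Their Pol II differences at 23C were 4.10, 3.58 and 3.94 on the log2 scale, each above the 3.23 of sosi-1. Their H3K9me3 differences were -2.09, -1.85 and -1.25, each smaller in size than the -2.82 of sosi-1. The levels behind these differences were unlike. In WT at 15C to p15C, W03G1.8 had 2.50 to 3.79 RPKM of Pol II, F49F1.7 had 2.64 to 3.59 RPKM and F55B11.6 had 1.30 to 2.28 RPKM, all under the 8.97 to 13.4 RPKM of sosi-1. Their WT H3K9me3 of 19.4 to 29.8, 17.4 to 24.1 and 8.48 to 12.5 RPKM was also under the 41.8 to 65.5 RPKM of sosi-1. The estimated reads of F55B11.6 were whole in all 36 libraries. Those of W03G1.8 were whole in 3 and multiples of 0.25 in 10, and those of F49F1.7 in 4 and 6. How far reads from other places enter the values of W03G1.8 and F49F1.7 was not measured.

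**Figure D3:**
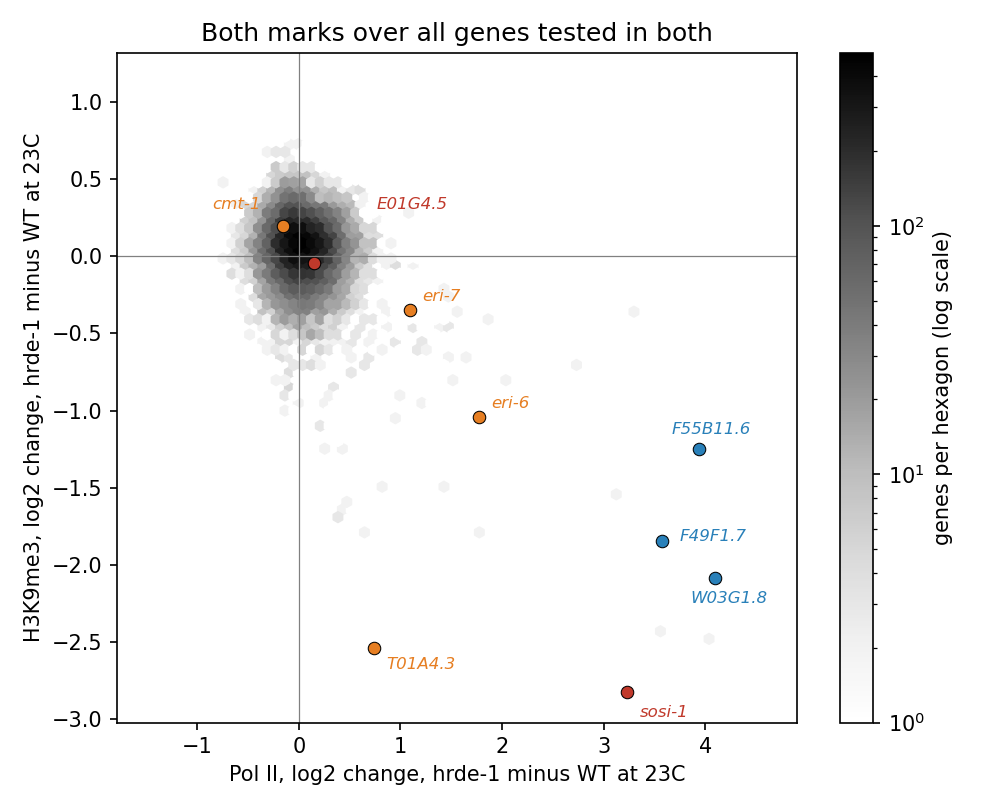
Log2 change of hrde-1 minus WT at 23C in Pol II (horizontal) and H3K9me3 (vertical), on the log2(RPKM + 1) scale, with grey hexagons for the number of genes (log scale) among all genes tested in both marks, red points for sosi-1 and E01G4.5, orange for genes beside sosi-1 and blue for the 3 compared genes. sosi-1 (3.23, -2.82) lies far from the mass of genes, T01A4.3 (0.74, -2.54) has the H3K9me3 change without a Pol II change of that size, and E01G4.5 (0.15, -0.05) lies inside the mass.

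No heat or recovery difference of sosi-1 was called within a genotype. In WT, its Pol II difference was -0.21 ± 0.25 (SE, log2) for 23C minus 15C (limma adjusted p = 0.77) and -0.05 ± 0.19 for p15C minus 23C (adjusted p = 1.0). In hrde-1 the values were -0.40 ± 0.25 (limma adjusted p = 0.82) and -0.02 ± 0.19 (adjusted p = 0.97). Over all genes, 0.0149% were called in Pol II for WT 23C minus 15C, 0.229% for hrde-1, 0.368% for WT p15C minus 23C and 0.0249% for hrde-1, so calls were rare in each of these contrasts.

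H3K9me3 at sosi-1 was lower in each of the 3 heat generations than before heat in both genotypes, by less than a call needs. In WT each heat value was also below both p15C values, and in hrde-1 23C-G2 (5.85 RPKM) overlapped with p15C-G1 (5.72 RPKM). The difference of 23C minus 15C was -0.58 ± 0.16 in WT (limma adjusted p = 0.23) and -0.44 ± 0.16 in hrde-1 (adjusted p = 0.44), against a single 15C library each. The difference of p15C minus 23C was 0.30 ± 0.13 in WT (limma adjusted p = 0.67) and 0.19 ± 0.13 in hrde-1 (adjusted p = 1.0). Of all genes, 0.0496% and 0.0645% were called for 23C minus 15C in WT and hrde-1, and 0% and 0.00992% for p15C minus 23C. WT H3K9me3 at 23C, the lowest WT phase at 43.6 ± 2.91 RPKM (SD, n = 3), was still several times the highest mutant value, 7.54 RPKM. The input of sosi-1 was also below its 15C value in each 23C library of both genotypes, with a difference of -0.57 ± 0.42 in WT and -0.69 ± 0.42 in hrde-1 that did not pass (limma adjusted p = 1.0 and 0.68). With the input of the same culture subtracted, the H3K9me3 difference of 23C minus 15C was -0.0049 ± 0.53 in WT and 0.24 ± 0.53 in hrde-1 (limma adjusted p = 1.0 and 0.94). With an SE of 0.53, these values cannot tell a lower H3K9me3 in heat from no difference.

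The genotype difference of sosi-1 was also compared between phases. The change of the Pol II difference from 15C to 23C was -0.18 ± 0.35 and that from 23C to p15C was 0.02 ± 0.27 (limma adjusted p = 1.0 for both). For H3K9me3 the changes were 0.14 ± 0.23 and -0.11 ± 0.18 (adjusted p = 0.98 and 1.0). No change of the genotype difference was detected at this number of libraries. Among all genes, 0.00497% were called for the change of the Pol II difference from 15C to 23C, and 0% for the other 3 such comparisons.

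E01G4.5 showed no separation of the genotypes in either mark. In WT its Pol II value was 7.86 RPKM in 15C-G3, 6.36 RPKM in 23C-G2, 9.36 RPKM in 23C-G4, 10.9 RPKM in 23C-G6, 6.54 RPKM in p15C-G1 and 6.74 RPKM in p15C-G2. In hrde-1 the values were 4.19, 6.41, 11.7, 12.1, 6.61 and 7.78 RPKM. The ranges overlapped, and the ratio of hrde-1 to WT in a generation ran from 0.533 to 1.25. The differences of hrde-1 minus WT were -0.77 ± 0.40 (SE, log2) at 15C, 0.15 ± 0.23 at 23C and 0.10 ± 0.28 at p15C, and the first rests on 1 library of each genotype with 74 and 34.5 estimated reads. Over all genes the median Pol II difference was 0.05, 0.03 and 0.12 at the same phases.

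H3K9me3 at E01G4.5 was likewise similar in both genotypes. In WT it was 13.6, 9.16, 11.4, 11.5, 11.2 and 13.1 RPKM from 15C-G3 to p15C-G2. In hrde-1 it was 14.6, 13.4, 9.96, 8.04, 10.0 and 11.1 RPKM. The hrde-1 value was the lower one in 4 of 6 generations, and the differences were 0.09 ± 0.24, -0.05 ± 0.14 and -0.18 ± 0.17 on the log2 scale at 15C, 23C and p15C. In WT these levels lay between the 62.8th and 88.7th percentile of all genes, and in hrde-1 between the 54.6th and 92.0th. Per length, E01G4.5 carried 0.208 to 0.274 of the H3K9me3 that sosi-1 had in the same WT library.

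**Figure D4:**
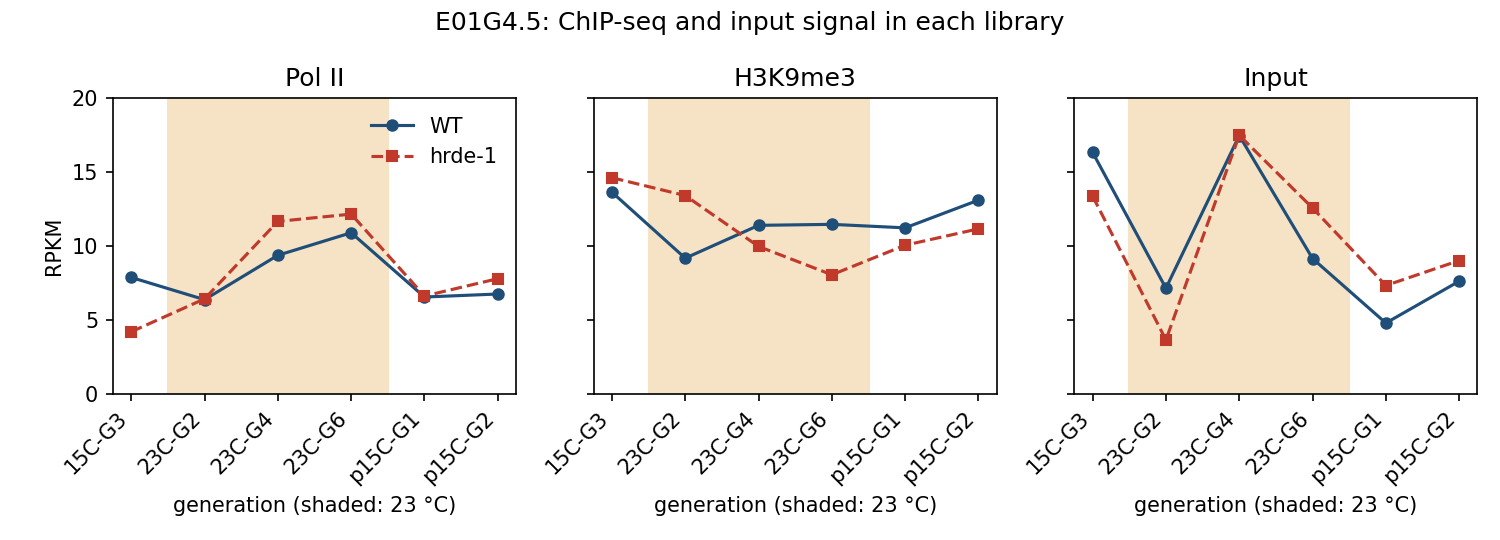
E01G4.5 signal in each of the 36 libraries (RPKM, linear axis from 0) against generation, with WT as blue circles, hrde-1 as red squares and the 23 °C generations shaded; each point is 1 library. The genotypes overlap in all 3 panels, and Pol II is highest in 23C-G4 and 23C-G6 in both, at 9.36 and 10.9 RPKM in WT and 11.7 and 12.1 RPKM in hrde-1.

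Within the genotypes, E01G4.5 Pol II was highest in the 2 later heat generations. In both genotypes 23C-G4 and 23C-G6 were above each of the other 4 libraries, and 23C-G2 was close to the p15C generations. The difference of 23C minus 15C was 0.13 ± 0.32 in WT (limma adjusted p = 0.89) and 1.05 ± 0.32 in hrde-1 (adjusted p = 0.43), which was not called. In hrde-1 it was called without the hrde-1 23C-G2 library (1.31, limma adjusted p = 0.035) and without the WT 23C-G2 library (1.05, adjusted p = 0.097), the second of which changes only the estimate of spread. The change of the genotype difference from 15C to 23C was 0.92 ± 0.46 and did not pass (limma adjusted p = 1.0). For p15C minus 23C the differences were -0.34 ± 0.26 in WT and -0.39 ± 0.26 in hrde-1 (limma adjusted p = 1.0 and 0.63).

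The input of E01G4.5 also varied by generation, at 16.3, 7.13, 17.5, 9.14, 4.78 and 7.61 RPKM in WT and 13.4, 3.63, 17.5, 12.6, 7.31 and 9.004 RPKM in hrde-1. These values rest on 2 to 32 estimated reads. In both genotypes the 23C-G4 input was the highest, where Pol II was high, and in hrde-1 the 23C-G2 input was the lowest. With the input of the same culture subtracted, the Pol II difference of 23C minus 15C was 0.72 in WT and 1.50 in hrde-1. Neither was called, and both rest on these few input reads. Whether the input takes part in the Pol II pattern over the generations was not tested. H3K9me3 in hrde-1 ran against Pol II over the heat generations (13.4, 9.96 and 8.04 RPKM) and in WT it did not (9.16, 11.4 and 11.5 RPKM). The H3K9me3 differences of 23C minus 15C were -0.33 ± 0.20 in WT and -0.47 ± 0.20 in hrde-1, neither called (limma adjusted p = 0.66 and 0.55), and those of p15C minus 23C were 0.18 ± 0.16 and 0.04 ± 0.16 (adjusted p = 0.87 and 1.0).

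The input genotype difference of E01G4.5 was -0.13 ± 0.43 at 23C and 0.37 ± 0.53 at p15C (limma adjusted p = 0.93 and 1.0). Its estimated reads were whole in 17 of 36 libraries and multiples of 0.25 in all 36, so some of its reads too may match more than 1 place.

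Neither gene within 10 kb of E01G4.5 was called. E01G4.7, a pseudogene in RefSeq 4234 bp away, had Pol II of 17.8 ± 4.41 RPKM in WT and 14.5 ± 0.80 RPKM in hrde-1 at 23C (n = 3, log2 change -0.25, limma adjusted p = 1.0). Its H3K9me3 was 7.75 ± 0.71 and 5.64 ± 0.77 RPKM (log2 change -0.40, limma adjusted p = 0.11). E01G4.6, 8481 bp away, had a log2 change of -0.08 in Pol II (limma adjusted p = 1.0) and of 0.05 in H3K9me3 (adjusted p = 0.85). Around sosi-1 at 23C, eri-6 and eri-7 were called in Pol II, against 0.85% of all genes. In H3K9me3, eri-6 and T01A4.3 were called, against 0.848% of all genes. These neighbours may share reads with each other or with sosi-1, so they do not count as separate cases. The difference between the loci was not tested.

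Genes of the small RNA and H3K9 methylation pathways were counted as a list of 42, of which 41 were found in the tables. At 23C, 2 of 41 were called higher in Pol II in hrde-1, against 0.795% of all genes, and these were eri-6 and eri-7, the neighbours of sosi-1. None was called lower, and the median log2 difference of the 41 was -0.09, against 0.03 over all genes. In H3K9me3 at 23C, 1 of 41 was called lower, against 0.838% of all genes, and that was eri-6. The list median was 0.07, against 0.06 over all genes. mut-14, an RNA helicase of siRNA amplification, was called lower in H3K9me3 at 15C (-1.22 ± 0.21, limma adjusted p = 0.0027), where 2 of 41 were called lower with eri-6 (-1.43). Of all genes, 0.982% were called lower in H3K9me3 at 15C. The 15C calls compare 1 library with 1 library, with the spread taken from the other phases, and mut-14 was not called at 23C or p15C. None of the 41 was called in the heat or recovery contrasts of either genotype and either mark. Of all genes, 0% to 0.368% were called in these contrasts, so the absence of calls says little about the list. The nuclear RNAi genes hrde-1, nrde-1, nrde-2, nrde-3 and nrde-4, the H3K9 methylation genes met-2, set-25 and set-32 and the Argonautes prg-1, csr-1, wago-1 and wago-4 were among those not called in any of these contrasts.

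The genes whose signal ran most like that of each gene over the 12 libraries of a mark are given by Pearson's r of log2(RPKM + 1), with no test. For sosi-1 Pol II these were F15D4.5 (r = 0.99), C03A7.2, srg-66, F07B7.1 and W09B7.1, and for sosi-1 H3K9me3 Y54G2A.21 (r = 1.0), F09E5.10, ZC317.1, B0391.10 and bath-29. These r values are set by the gap between the genotypes, since all 12 libraries fall into 6 of WT and 6 of hrde-1. F07B7.1 and W09B7.1 hold the same values in the tables. For E01G4.5 the closest were T24B8.3 (r = 0.98), C05D9.7, M02D8.3, cyd-1 and ztf-11 in Pol II, and tpxl-1 (r = 0.89), dph-7, rpm-1, fbxa-94 and F41D3.8 in H3K9me3, all with like means in WT and hrde-1. sosi-1 and E01G4.5 were unlike each other, with r of -0.08 in Pol II and 0.26 in H3K9me3.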

How the data were processed

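Pol II, H3K9me3 and input libraries (12 each) were single sets of 6 generations of WT and hrde-1. The authors deposited RPKM per gene, made from perfect Bowtie 0.12.7 alignments to WS190, without input subtraction. The tables hold 20911 entries, reduced to 20167 genes by keeping 1 isoform (744 dropped), of which 19562 matched a RefSeq name. All per-sample columns were used. Samples were grouped by genotype and phase from the labels. For each mark, limma 3.58.1 in R 4.3.3 was fitted to log2(RPKM + 1) with 6 group means and a mean-variance trend, after removal of genes under a mean of 1 RPKM (51 in Pol II, 0 in H3K9me3 and input). P-values were adjusted by Benjamini-Hochberg over all genes tested, with calls at 0.1 and 2-fold, thresholds taken from the study. In Pol II, WT and hrde-1 of the same 23C generation deviated together (r = 0.35 to 0.71), as a hint of pairing from the data alone, so a fit with generation as a replicate block was set beside the main values. In H3K9me3 1 of 3 pairs was under 0.1 (r = 0.05). The fit was tested on simulated data. Differences between phases of the genotype difference were added after the data were seen. The genes and lists were chosen with earlier results of these data known.

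Named genes were the pair, hrde-1, genes within 10 kb, the 5 most alike per mark, 3 compared genes and called pathway genes. Depth was read from steps of RPKM times a length about 1 kb over that of the gene, at which a median of 73.4% of genes gave whole reads within 0.02 (3.98% with no added length). The median gene had 47 to 92 reads by library for Pol II, 48 to 162 for H3K9me3 and 5.00 to 33.0 for input. The markers were pgl-1, glh-1, glp-1, him-3, htp-3, syp-1, mex-5 and oma-1 (germline), spe-9, spe-11, spe-41, gsp-3 and gsp-4 (sperm) and vit-2, vit-6, ges-1, elt-2 and asp-1 (intestine). Muscle markers summed to 14.6 to 45.1 RPKM of Pol II in WT and 25.0 to 40.7 RPKM in hrde-1, neuron markers to 46.1 to 75.7 and 51.0 to 61.9 RPKM, and 2 hypodermis markers to 3.57 to 9.86 and 2.50 to 16.3 RPKM.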

Additional observations from a re-analysis of the deposited data

How the results depend on the processing

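The limits are the 1 lineage per genotype, the single 15C library of each genotype and mark, and the low input depth, which makes every input-subtracted value noisy. The genotype differences of sosi-1 kept their sign under every alternative fitted. Alternatives that changed only the filter, the trend, the replicate block or the groups included could not move them. Leaving out 1 library left the 15C values at 3.41 for Pol II and -2.96 for H3K9me3, as the 15C libraries were kept. With a pseudocount of 5 the Pol II difference was 3.08 at 15C, 2.86 at 23C and 2.87 at p15C, and the H3K9me3 difference -2.49, -2.24 and -2.40. With a pseudocount of 0.1 the H3K9me3 difference was -3.10, -3.02 and -3.11. With input subtracted, Pol II was 3.96, 3.89 and 3.52, and H3K9me3 -2.41, -2.16 and -2.68. Quantile normalization gave 3.48 for Pol II at 23C. Leaving out 1 library gave 2.96 to 3.55 for Pol II and -3.08 to -2.80 for H3K9me3 at p15C. For E01G4.5, input subtraction gave an H3K9me3 genotype difference of 0.36 at 15C and -0.55 at p15C, and a Pol II difference of -0.27 at p15C.

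None of the tested heat or recovery differences of the pair was called, so any sign that turned among them belongs to an uncalled one. The cause was not tested. Untested genotype differences of E01G4.5 turned sign too. Over the alternatives its H3K9me3 difference at 23C ran from -0.22 to 0.11. Its Pol II difference ran from -0.049 to 0.41 at 23C and from -0.27 to 0.20 at p15C. With input subtracted, sosi-1 Pol II became 0.36 (WT) and 0.29 (hrde-1) for 23C minus 15C and 0.032 for WT p15C minus 23C, and its hrde-1 H3K9me3 0.24 and -0.13 for the same contrasts, while its WT H3K9me3 went from -0.58 to -0.0049 for 23C minus 15C. E01G4.5 became 0.26 in WT H3K9me3 for 23C minus 15C and 0.36 in WT Pol II for p15C minus 23C. Quantile normalization gave 0.015 for sosi-1 hrde-1 Pol II and -0.0063 for E01G4.5 WT Pol II, and median centring -0.14 for the latter, all for 23C minus 15C. Leaving out 1 library gave -0.16 to 0.10 for WT and -0.32 to 0.28 for hrde-1 sosi-1 Pol II (p15C minus 23C), -0.021 to 0.32 for WT and 0.90 to 1.31 for hrde-1 E01G4.5 Pol II (23C minus 15C), and -0.12 to 0.22 for hrde-1 E01G4.5 H3K9me3 (p15C minus 23C). The block changed none of the 23C genotype calls of the genes beside the pair. The other 454 values kept direction and side of the threshold or, for the untested genotype differences, moved by less than the replicate spread.

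The number of genes called at 23C between the genotypes was 171 in Pol II (94 to 194 over the alternatives) and 171 in H3K9me3 (117 to 192). At 15C it was 112 in Pol II (13 to 610) and 218 in H3K9me3 (0 to 265), and at p15C 191 (44 to 292) and 184 (15 to 211). For 23C minus 15C, Pol II counts were 3 in WT (0 to 9) and 46 in hrde-1 (1 to 337), and H3K9me3 counts 10 (0 to 18) and 13 (0 to 34). For p15C minus 23C, Pol II counts were 74 (0 to 161) and 5 (1 to 31), and H3K9me3 counts 0 (0 to 1) and 2 (0 to 2).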
